A study of Forsythia viridissima with 2 samples.

Results

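In the flower and the leaf of Forsythia viridissima, 76 assembly genes had a contig that held most of the gene's reads in one tissue and a minor part in the other. An assembly gene is a set of contigs, transcripts put together from reads without a genome, that the assembler placed under one name. The 76 were chosen from the counts themselves, out of the 6833 assembly genes that had more than 1 contig and a sum of 20 counts or more in each library. A gene was taken when 1 contig had 60% or more of its counts in flower or in leaf and less than 40% in the second tissue, which was 1.11% of those tested. All contigs of these genes were kept as members, 215 of the 22361 contigs tested and of 88491 contigs in all. Because the rule uses the contrast of flower with leaf, the contig shares and ratios below are a description of the chosen genes and no test was made on them.

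Each tissue had 1 library, flower and leaf, from plants that were 2 years old and grew outdoors in a collection of medicinal plants. No treatment is stated, and whether a single plant gave both tissues is not stated in the labels. Summed over contigs there were 8279227 counts in flower and 8942023 in leaf. With no replicate, the differences below belong to these 2 libraries, and the 95% intervals cover counting error only. The files pair contig IDs with no gene names, so tissue markers could not be looked up and no function is given to any member.

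A plant gene can give more than one transcript through alternative splicing, of which intron retention is a common form in plants, or through different start and end sites. Organs are known to use such forms to different extents, so that the main transcript of a gene in one organ can be a minor one in another. An assembler also puts alleles, close paralogs and partial pieces of a transcript under one name, and contig IDs do not tell these apart. In the deposited tables each RSEM gene was a single contig and all expected counts were whole numbers, and the way a read matching several contigs of an assembly gene was counted is not stated. Every contig share below carries that limit.

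The 76 genes fell into 3 forms of switch. In 39 of them, 0.571% of the genes tested, a contig that was main in flower and minor in leaf stood beside another that was main in leaf and minor in flower. In a further 17 genes only the flower side passed the rule, and in 20 only the leaf side. A contig main in flower was thus found in 56 genes (0.820% of those tested) and a contig main in leaf in 59 (0.863%). With 2 contigs the shares mirror each other, and 34 of the 36 members with 2 contigs switched both ways. The other two had a contig at exactly 40% in one tissue. Of the 40 members with 3 or more contigs, 5 switched both ways.

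The 56 contigs main in flower held 60 to 97.5% of their gene's counts in flower, with a median of 66.3%, and 0.235 to 39.6% in leaf, with a median of 30.6%. The 59 contigs main in leaf held 2.55 to 39.8% in flower, with a median of 32.5%, and 60 to 94.4% in leaf, with a median of 65.4%. Most members therefore lay near the limits of the rule, and a few lay far inside it. At limits of 70% and 30%, 14 of the 76 genes remained, and at 80% and 20%, 5 remained.

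**Figure D1:**
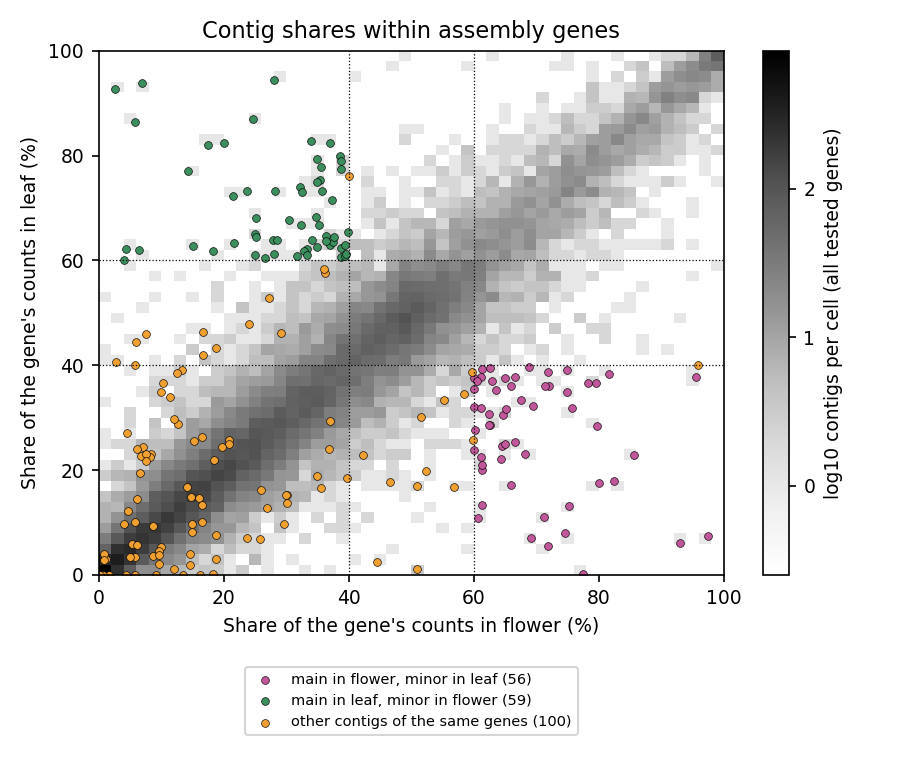
Share of the assembly gene's counts held by each contig in flower (x axis, percent) and in leaf (y axis, percent). Grey cells count all 22361 contigs of the tested genes on a log10 scale, points are the 215 member contigs, and dotted lines stand at 40% and 60%. The grey cells follow the diagonal, while the 56 contigs main in flower sit at the lower right and the 59 main in leaf at the upper left.

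By the rule for names, 4 genes are given by ID. Each of the 29 members with at least 100 counts in each library was placed with 1 tissue. The placing followed the wider gap between the counting intervals of a contig's shares, and tied genes went with the tissue of their higher sum. The named genes are the 2 with the widest gap among those placed with each tissue. A tied gene placed with leaf and not named had a gap of 58.8 percentage points, against 58.6 for TR33781|c2_g2, named for flower. Among the genes placed with flower, the widest gap was 83.9 percentage points, in TR32295|c0_g1. The tied gene TR29958|c0_g2, placed with leaf, had a wider gap on both sides, 84.6. TR32295|c0_g1 had 2 contigs. Its contig i5 (816 bases) had 4941 counts in flower, against 32 in leaf, which were 93.0% (95% Wilson interval 92.3 to 93.7%) and 6.06% (4.33 to 8.43%) of the gene. Its contig i4 (602 bases) had 371 counts in flower, against 496 in leaf, or 6.98% (6.33 to 7.70%) and 93.9% (91.6 to 95.7%). The exchange of places rested on i5, which was 158-fold higher in flower (112 to 232) after TMM scaling, a scaling of library sizes by the trimmed mean of contig ratios. Contig i4 was 1.30-fold higher in leaf (1.14 to 1.50). As a whole the gene was 10.3-fold higher in flower (9.43 to 11.3), with 1038 TPM there and 129 TPM in leaf.

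TR33781|c2_g2, the other gene named for flower, had 6 contigs and switched on one side only. Contig i3, of 3811 bases, held 917 of 1326 counts in flower and 230 of 3252 in leaf, or 69.2% (66.6 to 71.6%) and 7.07% (6.24 to 8.01%). No single contig took its place in leaf. The contigs i2, i5, i6 and i7, each of 4993 to 5105 bases, had 108, 90, 100 and 100 counts in flower, against 733, 736, 750 and 708 in leaf. The highest of them held 23.1% of the gene in leaf. They were 6.62-fold to 7.98-fold higher in leaf, while i3 was 4.09-fold higher in flower (3.53 to 4.74). Within each tissue the counts of the 4 long contigs lay close together. The sixth contig, i1 of 777 bases, was at 11 counts in flower and 95 in leaf. The gene as a whole was 2.39-fold higher in leaf (2.24 to 2.55).

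On the leaf side the widest gap was that of TR29958|c0_g2, with 2 contigs. Contig i1 (1807 bases) had 4 counts in flower, against 994 in leaf, or 2.55% (0.995 to 6.37%) and 92.6% (90.9 to 94.1%) of the gene. Contig i2 (1622 bases) had 153 counts in flower, against 79 in leaf, or 97.5% (93.6 to 99.0%) and 7.36% (5.95 to 9.08%). In flower i1 was almost without reads, and i1 was 243-fold higher in leaf (94.4 to 892), while i2 was 1.98-fold higher in flower (1.50 to 2.64). The shift of 90.1 percentage points in contig shares was the largest among all 6833 genes tested. The gene as a whole had 13.1 TPM in flower and 71.8 TPM in leaf, and its sum was 6.67-fold higher in leaf (5.64 to 7.94).

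TR26701|c0_g2, the other gene named for leaf, had 3 contigs and a sum within 4-fold, with 223 counts in flower and 426 in leaf. Contig i2 (851 bases) had 13 counts in flower, against 368 in leaf, or 5.83% (3.44 to 9.72%) and 86.4% (82.8 to 89.3%). Contig i1 (756 bases) had 173 counts in flower, against 1 in leaf, or 77.6% (71.7 to 82.6%) and 0.235% (0.0414 to 1.32%). Here both leading contigs stood far from even, with i1 177-fold higher in flower (31.4 to 7042) and i2 27.6-fold higher in leaf (16.0 to 52.4). Contig i3 had the same length as i2, 851 bases, with 37 counts in flower, against 57 in leaf, which were 16.6% and 13.4% of the gene. It thus kept a nearly equal part of the gene in both tissues.

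**Figure D2:**
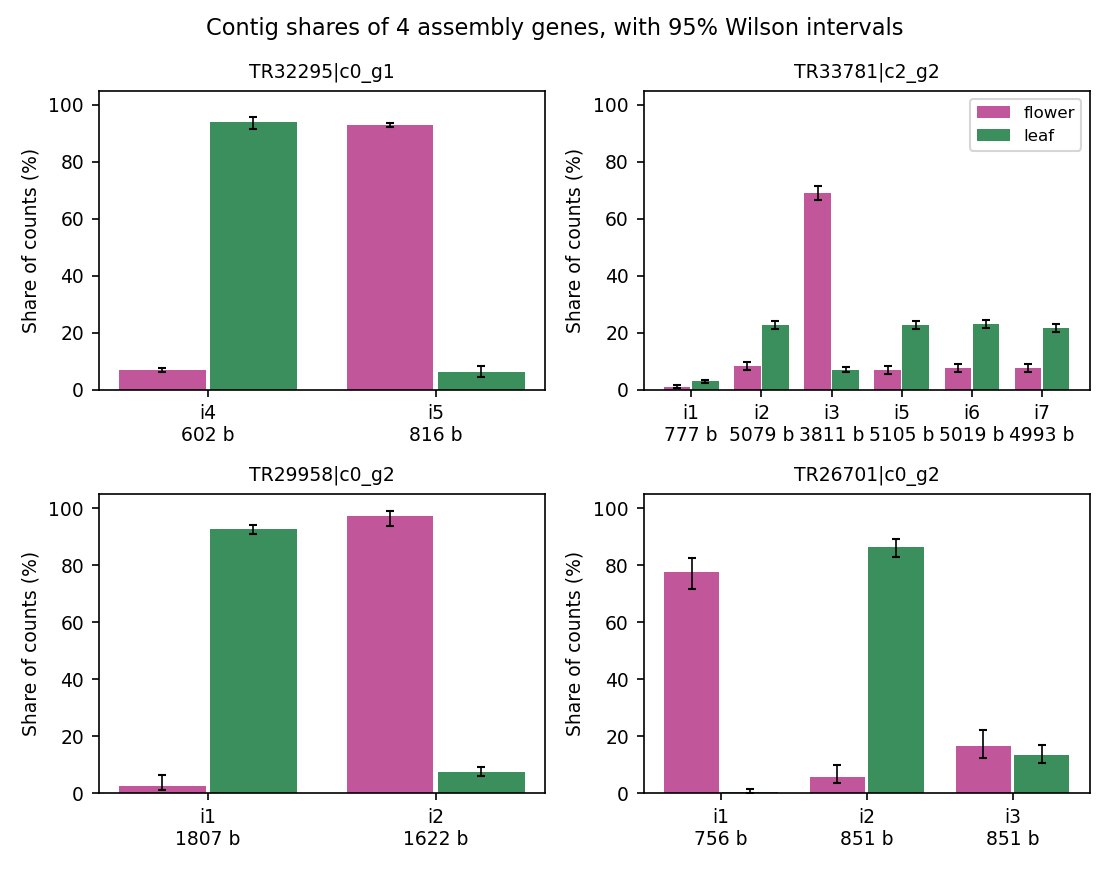
Share of the gene's counts (y axis, percent) held by each contig of the 4 named assembly genes, flower bars left of leaf bars, with 95% Wilson intervals as error bars and contig lengths in bases under each pair. In TR32295|c0_g1, TR29958|c0_g2 and TR26701|c0_g2 different contigs hold 77.6% or more in flower and 86.4% or more in leaf, while in TR33781|c2_g2 the leaf counts are spread over 4 long contigs of up to 23.1% each.

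The members next in the same order, given by contig length alone, showed the same range of forms. On the flower side, a gene with contigs of 2579 and 2501 bases had 1172 and 293 counts in flower, against 53 and 249 in leaf. The longer contig held 80% of the gene in flower and 17.5% in leaf, and it was 22.7-fold higher in flower (17.2 to 30.4) while the shorter was 1.21-fold higher there (1.01 to 1.43). A gene with contigs of 1793 and 509 bases had 2517 and 114 counts in flower, against 87 and 143 in leaf. In both of these genes a longer contig was scarce in leaf and a shorter one was nearly even between the tissues.

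A gene with contigs of 2778, 2556 and 2623 bases had 292, 128 and 61 counts in flower, against 935, 5250 and 2511 in leaf. The first of these held 60.7% of the gene in flower and 10.8% in leaf, although all 3 contigs were higher in leaf, by 3.12-fold (2.74 to 3.58), 40-fold (33.6 to 48.1) and 40.2-fold (31.2 to 52.7). The contig main in flower was thus the one that differed least between the tissues.

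On the leaf side, a gene with contigs of 1694 and 1576 bases had 666 and 111 counts in flower, against 813 and 2737 in leaf. The shorter contig held 14.3% of the gene in flower and 77.1% in leaf and was 24.1-fold higher in leaf (19.9 to 29.4), while the longer was 1.19-fold higher there (1.07 to 1.32). A gene with contigs of 739, 952 and 1035 bases had 59, 245 and 607 counts in flower, against 1756, 359 and 718 in leaf. Its shortest contig was 29.0-fold higher in leaf (22.4 to 38.3) and the other two lay within 2-fold.

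In genes where only one side passed the rule, the leading contig of the second tissue varied widely in share. In the 17 genes with a flower side alone, the leading contig in leaf held 23.1 to 76.2% of the gene, with a median of 44.4%. In the 20 genes with a leaf side alone, the leading contig in flower held 32.2 to 95.9%, with a median of 48.8%. A gene with contigs of 2307, 2044, 1492 and 1958 bases had 222, 94, 91 and 218 counts in flower, against 59, 224, 7 and 67 in leaf. Its contig of 2044 bases held 15.0% (12.5 to 18.1%) in flower and 62.7% (57.6 to 67.6%) in leaf. The contigs of 2307 and 1958 bases held the flower counts in nearly equal parts, 35.5% and 34.9%.

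A leaf side could also appear in a gene that was higher in flower throughout. A gene with contigs of 1339, 1231, 1957 and 1344 bases had 100, 100, 160 and 171 counts in flower, against 10, 4, 20 and 97 in leaf. The last contig held 32.2% (28.4 to 36.3%) in flower and 74.0% (65.9 to 80.8%) in leaf. All 4 contigs were higher in flower, by 10.2-fold (5.35 to 22.0), 25.6-fold (9.70 to 95.9), 8.20-fold (5.13 to 13.8) and 1.81-fold (1.40 to 2.34). The contig that took the larger part in leaf was thus the one nearest to even.

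On a per-length scale the members covered a wide range of levels. Their summed TPM ran from 1.49 to 1038 in flower, with a median of 17.4, and from 1.59 to 474 in leaf, with a median of 13.9. Over all tested genes the medians were 19.0 TPM in flower and 17.2 TPM in leaf. The member at 1038 TPM was TR32295|c0_g1. The one at 474 TPM was the gene with contigs of 739, 952 and 1035 bases, which had 136 TPM in flower.

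Some switches came with nearly equal gene sums. A gene with contigs of 1708 and 1703 bases summed to 532 counts in flower and 515 in leaf, a ratio of flower to leaf of 1.06 (0.936 to 1.20). Its longer contig had 417 counts in flower, against 189 in leaf, and the shorter had 115 counts in flower, against 326 in leaf. The shares of the longer were 78.4% (74.7 to 81.7%) in flower and 36.7% (32.6 to 40.9%) in leaf. A second gene of even sum, with 251 counts in flower and 243 in leaf, had a contig of 2956 bases with 200 counts in flower, against 69 in leaf, and contigs of 1956 and 2061 bases with 26 and 25 counts in flower, against 89 and 85 in leaf. Apart from the named genes and those next in their order, the genes given as examples were picked after their values were seen.

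A change of place did not need contigs that moved in opposite directions. The contig with most counts in flower and the one with most in leaf were different contigs in 69 of the 76 members. This held for 25.0% of all tested genes. The rule requires it in members with 2 contigs and favours it in the others, so nothing is read from that comparison. In the remaining 7 members a single contig led in both tissues, with under 40% of the gene in one of them. In 35 of the 69 pairs (50.7%) the leading contig of flower was higher in flower and that of leaf higher in leaf. In 18 pairs (26.1%) both contigs were higher in flower, and in 16 (23.2%) both were higher in leaf, by unequal amounts. With libraries scaled by their totals in place of TMM these numbers were 33, 20 and 16. Over the 1705 tested genes with different leading contigs the TMM-scaled numbers were 461 (27.0%), 627 (36.8%) and 617 (36.2%). The rule favours contigs with unlike ratios, so nothing is read from this comparison. In 15 pairs the flower contig was at least 4-fold higher in flower while the leaf contig lay within 2-fold. In 14 the leaf contig was at least 4-fold higher in leaf while the flower contig lay within 2-fold. In 4 pairs the contigs were at least 4-fold apart in opposite directions, and in 22 pairs neither reached 4-fold. The former held in 5 of the 1705 tested genes with different leading contigs, the 4 pairs included. The numbers 15, 14 and 22 were not counted over all tested genes.

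The ratio of the flower contig to the leaf contig in flower, divided by the same ratio in leaf, does not depend on library scaling. Over the 69 pairs this quotient had a median of 5.87 and ran from 2.31 to 4897, and it was at least 10 in 18 pairs and at least 100 in 4. Its median was 1.48 over the 1705 tested genes with different leading contigs. In the 1636 of these that were not members the median was 1.46 and the highest value 1927. Since the rule favours a large quotient, nothing is read from this comparison. Quotients of at least 10 or 100 were not counted over all tested genes. Among the 69 pairs the highest was that of TR26701|c0_g2 (95% interval 705 to 194882), which rests on the 1 leaf count of its contig i1. For TR29958|c0_g2 it was 481 (175 to 1815) and for TR32295|c0_g1 206 (141 to 309). The fourth was a gene with contigs of 1218, 1254 and 1224 bases, at 116 (77.3 to 183). These had 899, 1211 and 2190 counts in flower, against 542, 1545 and 24 in leaf, so that the third contig was 93.5-fold higher in flower (62.7 to 146) and the second was 1.25-fold higher in leaf (1.15 to 1.34).

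**Figure D3:**
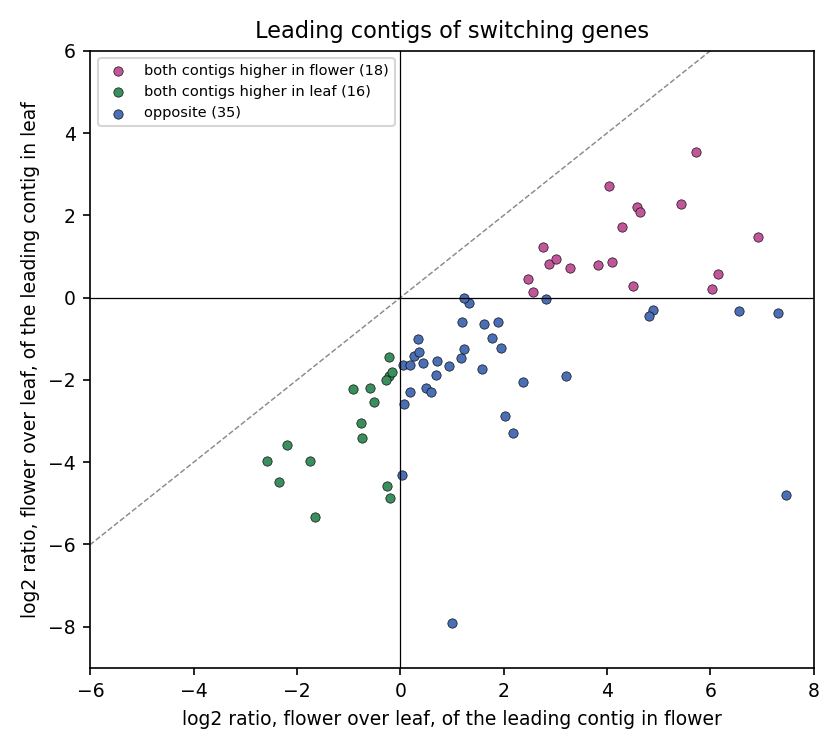
Log2 ratio of flower over leaf, TMM-scaled, of the contig with most counts in flower (x axis) and of the contig with most counts in leaf (y axis), 1 point for each of 69 members. The points lie below the dashed line of equal ratios, as the choice of the 2 contigs requires, with 18 genes at the upper right, 16 at the lower left and 35 at the lower right.

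Of the member contigs, 176 had at least 20 counts in one library and were compared one by one. At least 4-fold higher in flower were 47 of them, 26.7%, against 11.6% of all 36828 contigs compared. At least 4-fold higher in leaf were 40, 22.7%, against 10.7% of all contigs compared. Contigs past 4-fold in both directions stood under one name in 5 members, and in 0.102% of all genes tested. In 27 members contigs past 4-fold were higher in flower only, in 21 in leaf only, and in 23 no contig reached 4-fold. The numbers 27, 21 and 23 were not counted over all tested genes. No counts in leaf were found for 9 member contigs, and no member contig was at 0 in flower. The 9 had flower counts of 76, 72, 31, 4, 3, 2, 1, 1 and 1. Contigs at 0 were not counted over all tested genes. These numbers come from the contrast that chose the members, so nothing is read from them.

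Summed over their contigs, 46 of the 76 members (60.5%) lay within 4-fold between the tissues, against 6150 of all 6833 tested genes (90.0%). At least 4-fold higher in flower were 18 members (23.7%), against 311 tested genes (4.55%). At least 4-fold higher in leaf were 12 members (15.8%), against 372 tested genes (5.44%). The sums come from the contrast that chose the members, so nothing is read from these shares. The sums were split evenly, with 38 members higher in flower and 38 in leaf (40 and 36 with libraries scaled by their totals), and their median log2 ratio was 0.02, against 0.04 over all tested genes. The quartiles were -1.22 and 1.89 for members and -0.61 and 0.62 for all tested genes. The gene with the highest ratio had contigs of 1022 and 1071 bases, with 1136 and 441 counts in flower, against 22 and 39 in leaf, a sum 26.5-fold higher in flower (20.5 to 34.8). The one with the lowest was the gene described above with contigs of 2778, 2556 and 2623 bases, with sums of 481 counts in flower and 8696 in leaf, 17.6-fold higher in leaf (16.1 to 19.4).

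**Figure D4:**
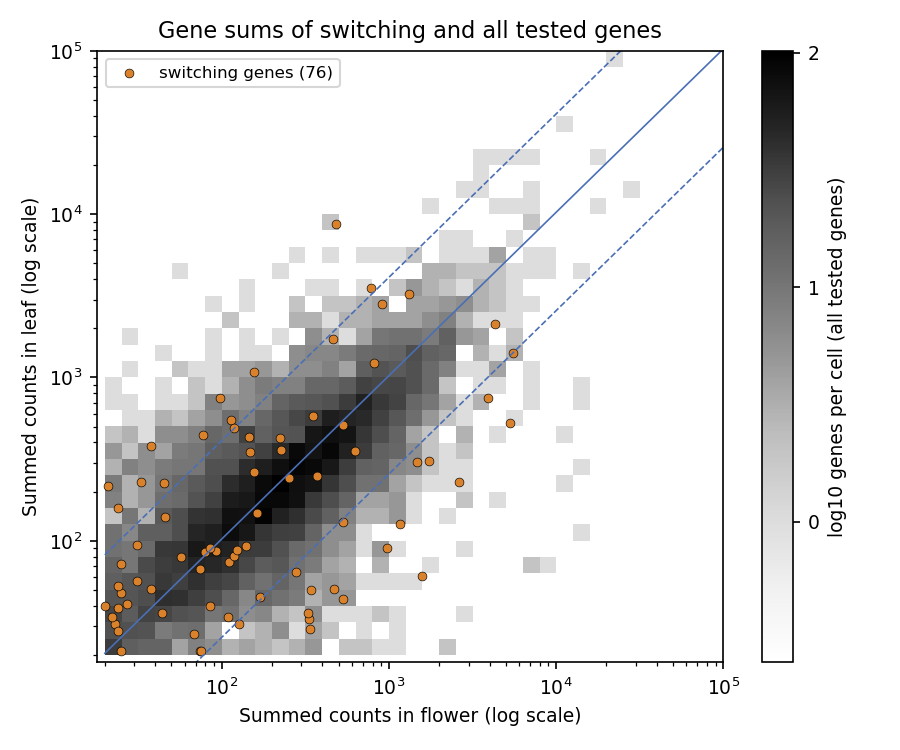
Summed counts of each assembly gene in flower (x axis, log scale) and in leaf (y axis, log scale). Grey cells count all 6833 tested genes on a log10 scale, points are the 76 members, the solid line marks equal TMM-scaled sums and the dashed lines 4-fold. Members lie on both sides of the solid line, 46 of them between the dashed lines.

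Length was not used by the rule. Among the 69 pairs the leading contig of flower was the longer in 32 and that of leaf in 36, and 1 pair had equal lengths. Over the 1705 tested genes with different leading contigs the numbers were 848 and 845, with 12 equal. The lengths in a pair differed by a median of 126 bases. In 7 pairs they lay within 10 bases of each other, in 9 pairs over 500 bases apart and in 4 over 1000. These length differences were worked out for the 69 pairs alone and not over all tested genes. The widest gap was in a gene with contigs of 2524, 695 and 2527 bases, which had 929, 926 and 2047 counts in flower, against 53, 548 and 148 in leaf. Its shortest contig held 23.7% of the counts in flower and 73.2% in leaf. The 2 contigs with most counts in a gene had lengths within 5% of each other in 22 members (28.9%) and in 28.0% of all tested genes.

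**Figure D5:**
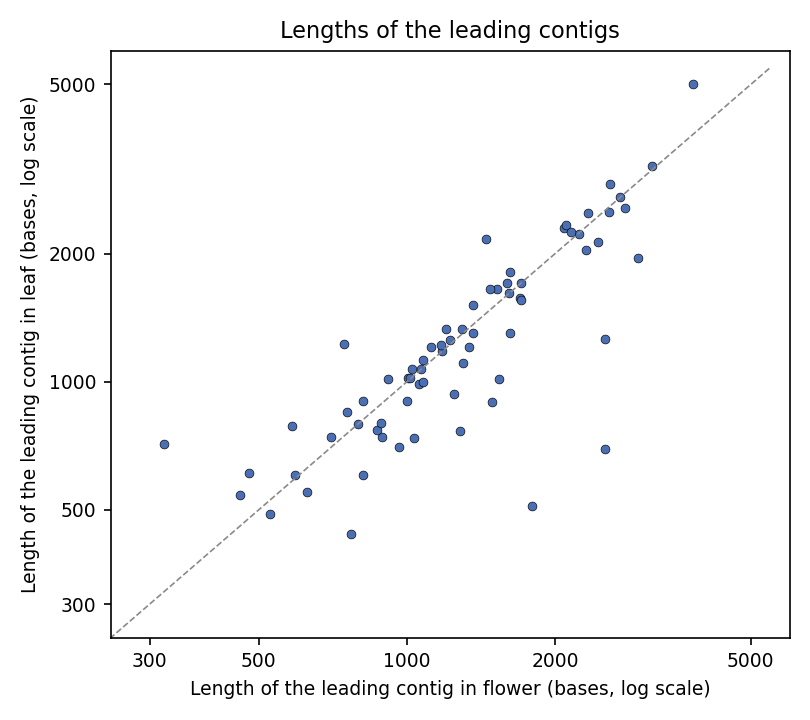
Length of the contig with most counts in flower (x axis, bases, log scale) and of the contig with most counts in leaf (y axis, bases, log scale) for 69 members, with a dashed line at equal lengths. The points scatter on both sides of the line, 32 with the longer contig leading in flower and 36 with the longer contig leading in leaf.

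Counts are not corrected for length, so a long contig holds a larger share of counts than of transcripts. By TPM, which is corrected, 48 of the 76 genes met the same limits and 28 did not, while 58 genes that did not switch by counts did so by TPM. The gene with contigs of 1793 and 509 bases shows the size of this effect: its longer contig held 37.8% of leaf counts and 11.3% of leaf TPM. In the 4 named genes the difference in share between the tissues was within counting error of that from counts.

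Members had fewer counts than tested genes at the median in both libraries. At the upper quartile members had more in flower and fewer in leaf. Their median sum was 133 counts in flower and 93.5 in leaf, against 204 and 210 over all tested genes. Their upper quartile was 472 counts in flower and 394 in leaf, against 440 and 426. The longest contig of a member had a median of 1329 bases, against 1783. The share of genes that switched was 2.72% (31 of 1140) at 20 to 49 counts in the lower library, 1.22% (16 of 1308) at 50 to 99, 0.548% (14 of 2555) at 100 to 299, 0.799% (12 of 1502) at 300 to 999 and 0.915% (3 of 328) at 1000 or more. The counting intervals of the switching contig's shares overlapped between the tissues in 13 of the 76 genes. With the bounds of the intervals themselves past 60% and 40%, 20 genes remained, which was 0.293% of the genes tested. By gene sum, 9 of the 20 reached 4-fold toward flower, 3 reached it toward leaf and 8 lay within it. Over all tested genes the same classes held 4.55%, 5.44% and 90.0%. The contrast of flower with leaf also chose the 20, so nothing is read from this split.

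By number of contigs, 36 of 3417 genes with 2 contigs switched (1.05%), 26 of 1438 with 3 (1.81%), 6 of 831 with 4 (0.722%) and 8 of 1147 with 5 or more (0.697%). The 76 members lay in 76 different read clusters of the assembly, so no pair of members came from one cluster. Isoform numbers had gaps in 32 members, 42.1%, and in 41.9% of all tested genes, and contigs with the missing numbers were not analysed here. Together the members held 0.512% of all flower counts and 0.423% of all leaf counts.

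At the edge of the rule, 5 members touched a limit exactly, for example a contig of 586 bases with 51 of 85 counts in flower (60%) and 32 of 90 in leaf (35.6%). Just outside it was a contig of 2316 bases with 214 of 559 counts in flower (38.3%) and 1427 of 2386 in leaf (59.8%). Another was a contig of 1778 bases with 973 of 1479 counts in flower (65.8%) and 2039 of 5059 in leaf (40.3%). Within 5 percentage points of a limit were 48 members on the inside and 163 other genes on the outside.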

How the data were processed

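Per the labels' protocols, the strand-specific libraries were made from bead-selected mRNA. The tools Trimmomatic (read trimming) and RSEM (abundance estimates) are listed without versions, per the submitters' processing notes. Aligner and assembler are not given in the sources here. The authors deposited RSEM expected counts per contig, which were whole numbers throughout, so that rounding changed none. The deposited TPM and FPKM are, per the file headers, length-corrected values scaled within each library. The deposited IsoPct is a percent of the RSEM gene in one contig, and it and FPKM entered no result here.

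Assembly genes were taken from the contig ID before the isoform number. Shares were computed from expected counts with 95% Wilson intervals. Ratios are of flower over leaf, with TMM factors over all contigs (edgeR 4.0.16, R 4.3.3) and exact conditional intervals, and a 0 was set to 3 counts. Intervals cover counting error only, since reads without molecular identifiers are not independent molecules. With 1 library per tissue there was no test. Intervals came from scipy 1.17.1, tables from pandas 2.3.3 and numpy 2.4.6 under Python 3.11.15, and plots from matplotlib 3.10.9. The rule and intervals were tested on simulated data. DESeq2 1.42.0 size factors were an alternative, and they were 1 for both libraries, which leaves counts unscaled.

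Members and rules were chosen with earlier results of these data known. The named genes were taken among members with at least 100 counts in each library. Each such gene was placed with the tissue of its wider gap between counting intervals, and the 2 with the widest gap per tissue were named. In genes of 2 contigs both sides tie, and a tied gene was placed with the tissue of its higher sum, a choice made after the values were seen. IDs of other members are left out because the files pair no ID with a gene name.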

Additional observations from a re-analysis of the deposited data

How the results depend on the processing

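The alternatives gave 54 values, of which 31 moved, 23 did not and none reversed, though counts cannot change sign. A count moved if it changed by over 1.5 times, and a share difference if it left its counting interval. All 31 were values of the 5 counts below, while the share differences of the 4 named genes all stayed within their intervals. Leaving out contigs under 10 counts in both libraries took no contig from the 4 named genes. Their share differences could not change under that setting. The 5 counts below are in one order: switching genes (76), those switched both ways (39), those with sums within 4-fold (46), those switching also by TPM (48) and those with the longer contig leading in flower (32). They were 1116, 614, 972, 619 and 374 at limits of 50% and 50%, 14, 8, 5, 10 and 8 at 70% and 30%, and 5, 3, 2, 3 and 3 at 80% and 20%. With 100 counts in each library they were 29, 13, 16, 23 and 12, out of 4385 genes. With interval bounds past the limits they were 20, 11, 8, 17 and 9. Joining the genes of one assembly component gave 158, 67, 110, 106 and 68. With shares from TPM, 78 genes had sums within 4-fold, of 106 that switched. A minimum of 10 counts, and leaving out contigs under 10 counts in both libraries, left each of these counts within 1.5 times. So did DESeq2 size factors and library totals, run only for the genes with sums within 4-fold. The DESeq2 factors were 1 in both libraries, so that setting compared unscaled counts. The number of switching genes thus follows the limits chosen. Of the 76 genes, 47 had under 100 counts in the lower library, where counting intervals are wider. No paired analysis was possible because flower and leaf had a single library each.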
